A study of Mus musculus with 12 samples.

Results

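The genes Hcn2, Hcn3, Hcn4 and Pex5l were followed across the pyramidal cell layer and the dendritic layer of mouse hippocampal CA2 and CA1. The Hcn genes encode channel subunits, and Pex5l encodes TRIP8b, the protein that regulates their traffic. They were taken by gene symbol, and all 4 of the 4 were measured, each by 1 array feature, among 30142 genes tested. No filter on low values was applied.

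HCN channels are hyperpolarization-activated, cyclic nucleotide-gated cation channels. They open when a neuron becomes more negative, carry the depolarizing current Ih, and open more readily when cAMP binds their intracellular domain. In CA1 pyramidal neurons Ih is known to grow along the apical dendrite, where it damps and shortens synaptic potentials. TRIP8b binds the carboxyl end of HCN subunits, directs them to or away from the surface depending on its splice form, and weakens their response to cAMP.

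The series holds 12 Affymetrix whole-transcript arrays, 3 for each of the CA2 dendritic layer (stratum radiatum), the CA2 cell body layer (stratum pyramidale), the CA1 dendritic layer and the CA1 cell body layer. The tissue donors were 3 male mice, Amigo2-EGFP on C57BL/6J, aged 6 to 8 weeks and each of its own litter, so every group carries the reporter transgene, and all were killed under Fatal Plus near the end of the light phase. Each piece was laser-captured from frozen 8 µm sections and pooled over about 20 caps, and 5 to 7 ng of its RNA was amplified. A captured layer is a mixture: the dendritic layer also holds interneurons, glia and vessels, and in such tissue fewer cells of a type and less RNA per cell cannot be told apart.

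Expression is given as the authors' normalized log2 values, on which a difference of 1 is a 2-fold difference. A group is summarised by its mean ± SD (n = 3), and adjusted p-values come from limma over all 30142 genes (called under 0.05). Array medians ran from 5.68 to 5.74 on the CA2 arrays and from 5.77 to 5.88 on the CA1 arrays, without overlap. All 6 CA2 arrays were of 1 run number and all 6 CA1 arrays of the other, so in CA2 against CA1 the region and the run cannot be told apart. The 5 comparisons set the dendritic layer against the cell body layer within CA2 and within CA1, the CA2 layer difference against the CA1 layer difference (the interaction), and, layer by layer, CA2 against CA1. Each layer comparison lay within 1 run, and a shift of a run that is equal in both layers cancels in the interaction. The CA2 label was checked on its markers: 6 of 6 CA2 neuron genes were higher in the CA2 than in the CA1 cell body layer (median 3.055). Between the dendritic layers 2 of the 6 were called higher in CA2 and 0 lower (median 0.25). These markers therefore check the label mainly on the cell body arrays. A group of 3 arrays stood apart. Over 9 oocyte genes, CA2 cell body 1 and CA2 dendritic 2 and 3 averaged 7.38 to 7.60, against 5.61 to 5.99 on the other 9, although all mice were male. The members' CA2 results are therefore also given without them, which leaves CA2 dendritic 1 and CA2 cell body 2 and 3. These share no replicate number, so with the number as a block the CA2 layer difference takes an offset between numbers from the CA1 arrays. The values without these arrays are therefore given with the block and, as a fit added after the data were seen, without it.

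The array measures RNA and not promoters, but the start sites place Hcn2 and Hcn4, the 2 members with a promoter sequence at hand. No link between these sequences and the levels of the members was tested. The 250 bases before each start are shown because they are the sequence these members can be compared on here, with each GC box (GGGCGG, searched on both strands) in capitals. The Hcn2 window lies at chr10:79716384-79716633 and the Hcn4 window at chr9:58822699-58822948, both on the plus strand of GRCm38.p6, from RefSeq, whose promoter table matched 2 of the 4 members.
Hcn2: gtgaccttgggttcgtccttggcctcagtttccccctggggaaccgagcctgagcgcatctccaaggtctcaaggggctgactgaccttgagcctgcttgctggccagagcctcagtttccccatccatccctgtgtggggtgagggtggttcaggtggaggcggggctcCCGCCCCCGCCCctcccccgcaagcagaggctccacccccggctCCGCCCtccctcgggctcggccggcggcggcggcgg
Hcn4: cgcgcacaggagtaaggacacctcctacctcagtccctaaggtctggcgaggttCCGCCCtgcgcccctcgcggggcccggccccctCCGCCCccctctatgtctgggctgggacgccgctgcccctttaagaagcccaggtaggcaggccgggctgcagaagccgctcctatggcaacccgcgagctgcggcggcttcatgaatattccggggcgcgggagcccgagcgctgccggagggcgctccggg
Both windows are rich in G and C, at 70.4% for Hcn2 and 71.2% for Hcn4, where the median of 32851 windows of this length was 52.4%. Hcn2 has 3 GC boxes and Hcn4 has 2, and 32.7% of all windows hold at least 1. Neither window holds TATAAA (12.4% of all windows) or the cAMP response element TGACGTCA (1.55%), and the E-box CANNTG (66.2%) occurs 1 time in Hcn2 and not in Hcn4.

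Hcn2, a subunit found widely in brain and strongly responsive to cAMP, was higher in the dendritic than in the cell body layer, more so in CA1 than in CA2. In CA2 it read 8.28, 8.40 and 8.22 in the dendritic layer, against 7.77, 7.99 and 8.01 in the cell body layer. In CA1 it read 9.02, 8.85 and 9.18 in the dendritic layer, against 8.10, 7.71 and 7.85 in the cell body layer. The layers did not overlap in either region, and the CA1 dendritic layer stood above all other groups.

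The Hcn2 rise in the CA1 dendritic layer was 1.13 (SE 0.12, 95% interval 0.86 to 1.40, adjusted p = 3.27e-05), a 2.19-fold difference, and the differences of the same-numbered arrays were 0.92, 1.14 and 1.33. Hcn2 was also called higher in the CA2 dendritic layer, by 0.38 (SE 0.12, 95% interval 0.11 to 0.64, adjusted p = 0.0333), or 1.30-fold. The CA2 call did not hold when each array was centred on its median (0.34, adjusted p = 0.0714), and without the oocyte arrays the difference was 0.12 with the block (adjusted p = 0.743) and 0.28 without it (adjusted p = 0.328). The layer difference was 0.75 smaller in CA2 than in CA1 (interaction -0.75, SE 0.17, adjusted p = 0.0206), and without the oocyte arrays this was -1.01 with the block (adjusted p = 0.0569) and -0.85 without it (adjusted p = 0.0557). The interaction also missed the threshold without CA1 cell body 2 (-0.67, adjusted p = 0.0647) or 3 (-0.71, 0.0561), CA2 cell body 2 (-0.68, 0.0634) or 3 (-0.72, 0.0589), or CA2 dendritic 1 (-0.73, 0.0517), and without replicate 2 or 3 of all groups (-0.77 and -0.57, adjusted p = 0.0907 and 0.141). The CA2 difference missed it without CA2 cell body 1 (0.27, adjusted p = 0.158) or 3 (adjusted p = 0.0627) and without CA2 dendritic 1 (adjusted p = 0.069) or 2 (0.28, adjusted p = 0.156). It also missed it without replicate 1, 2 or 3 of all groups (adjusted p = 0.121, 0.0903 and 0.0686).

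**Figure D1:**
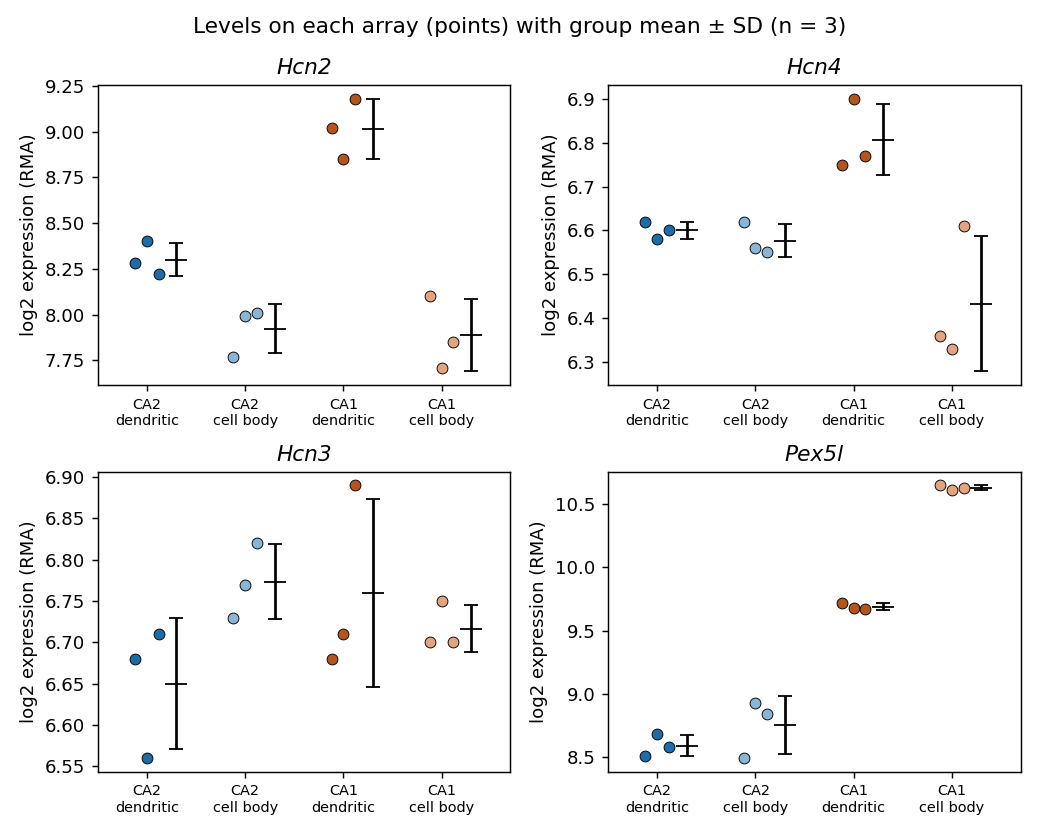
Log2 expression of Hcn2, Hcn4, Hcn3 and Pex5l on each of the 12 arrays (points), with group means and SDs (bars, n = 3) and a separate axis range for each gene. Hcn2 and Hcn4 are highest in the CA1 dendritic layer, Hcn3 spans 0.33 over all arrays, and Pex5l reads 8.49 to 8.93 in CA2 and 9.67 to 10.65 in CA1.

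Hcn4, the slow subunit best known from the cardiac pacemaker, was measured at a low level and was called in 1 layer comparison. It read 6.75, 6.90 and 6.77 in the CA1 dendritic layer, against 6.36, 6.33 and 6.61 in the CA1 cell body layer, without overlap. The rise was 0.37 (SE 0.08, 95% interval 0.19 to 0.56, adjusted p = 0.00436), or 1.30-fold, and leaving out replicate 2 took it to 0.28 (adjusted p = 0.0846). In CA2 the groups overlapped, at 6.62, 6.58 and 6.60 in the dendritic layer and 6.62, 6.56 and 6.55 in the cell body layer, and the difference of 0.02 had a 95% interval of -0.16 to 0.21 (without the oocyte arrays, 0.16 with the block and 0.07 without it, neither called). The interaction of -0.35 (SE 0.12, adjusted p = 0.0811) did not pass, and passed without CA1 cell body 3 (-0.45, adjusted p = 0.0346). Without the oocyte arrays it was -0.21 with the block (adjusted p = 0.535) and -0.31 without it (adjusted p = 0.309).

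Hcn3, the subunit whose opening is least helped by cAMP, did not pass in any of the 5 comparisons. It read 6.68, 6.56 and 6.71 in the CA2 dendritic layer, 6.73, 6.77 and 6.82 in the CA2 cell body layer, with 6.68, 6.71 and 6.89 in the dendritic and 6.70, 6.75 and 6.70 in the cell body layer of CA1. The CA2 layers did not overlap, at -0.12 (95% interval -0.28 to 0.03, adjusted p = 0.219), and the CA1 layers did, at 0.04 (-0.11 to 0.20, adjusted p = 0.618). As ratios of dendritic over cell body layer, the 95% limits were 0.83 to 1.02 in CA2 and 0.93 to 1.15 in CA1. Without the oocyte arrays the CA2 difference was -0.04 with the block and -0.12 without it, neither called.

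Hcn3 and Hcn4 lie where the array's background cannot be set aside. The 23 antigenomic features, whose probes match no mouse sequence and are grouped by G and C content, averaged 2.42 to 7.67, and those with 19 and 20 G or C bases lay within the range of Hcn3 and Hcn4. The G and C content of the members' own probes is not given in the sources used here. In the CA1 dendritic layer the antigenomic features were 0.09 to 0.29 higher than in the CA1 cell body layer, less than the 0.37 of Hcn4, and their part in that value was not tested. Between the CA2 layers the antigenomic features differed by -0.17 to 0.16. Those with 19 and 20 G or C bases differed by -0.13 and -0.11 there, where Hcn3 differed by -0.12. Their part in the Hcn3 value was not tested. Other control features also differed between layers and regions. The mean of 4 hybridization controls was 0.60 higher in the CA1 and 0.41 higher in the CA2 dendritic layer. That of 155 external control RNA features differed by 0.11 in CA1 and by -0.03 in CA2. Between regions, the hybridization mean was lower in CA2. It was 12.53 against 13.07 in the dendritic and 12.12 against 12.47 in the cell body layer. The external control mean went both ways, with CA2 at 5.26 against 5.34 in the dendritic and 5.28 against 5.23 in the cell body layer. The part of such shifts in the layer and region differences of the members was not tested. Pex5l exceeded the highest antigenomic value of any array (7.97) on all 12 arrays, and Hcn2 did so on all 6 dendritic arrays. On the cell body arrays Hcn2 lay on both sides of that value, at 7.77 to 8.01 in CA2 and 7.71 to 8.10 in CA1.

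Pex5l had the widest range of the 4 genes and followed region more than layer. In CA2 it read 8.51, 8.68 and 8.58 in the dendritic layer, against 8.49, 8.93 and 8.84 in the cell body layer, and these overlapped. In CA1 it read 9.72, 9.68 and 9.67 in the dendritic layer, against 10.65, 10.61 and 10.63 in the cell body layer, with a gap many times the spread within either group. Its group means spanned 2.04, where the median span over all genes tested was 0.37.

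In CA1, Pex5l fell by 0.94 in the dendritic layer (SE 0.09, 95% interval -1.15 to -0.73, adjusted p = 2.18e-05), to 0.52 of the level in the cell body layer. In CA2 the layer difference was -0.16 (SE 0.09, 95% interval -0.37 to 0.05, adjusted p = 0.235). Without CA2 cell body 1, the lowest of its group and an oocyte array, it was -0.29 and passed (adjusted p = 0.0206), while without all 3 oocyte arrays it was -0.41 with the block, which did not pass (adjusted p = 0.0591), and -0.38 without it, which passed (adjusted p = 0.0166). The layer differences themselves differed between regions (interaction 0.78, SE 0.13, adjusted p = 0.00585). The interaction was 0.53 without the oocyte arrays with the block (adjusted p = 0.103), 0.57 without them and without the block (adjusted p = 0.027), 0.83 without replicate 2 (adjusted p = 0.0588) and 0.81 without replicate 3 (adjusted p = 0.0597).

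Between regions, Pex5l was the member with the largest difference. It was 1.88 lower in the CA2 than in the CA1 cell body layer (difference -1.88, SE 0.09, 95% interval -2.09 to -1.67, adjusted p = 7.31e-07), or 0.27 of the CA1 level, with means of 8.75 ± 0.23 in CA2 and 10.63 ± 0.02 in CA1. Ranked by the size of the fall, this was place 59 of 30142 genes. In the dendritic layer it was 1.10 lower in CA2 (difference -1.10, SE 0.09, adjusted p = 9.13e-05), with means of 8.59 ± 0.09 in CA2 and 9.69 ± 0.03 in CA1. Both calls held under all 24 alternatives run on each, from -1.98 to -1.73 for the cell body layer and from -1.21 to -0.99 for the dendritic layer.

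The HCN genes differed less between regions. Hcn2 differed by 0.04 between the cell body layers (7.92 ± 0.13 in CA2, 7.89 ± 0.20 in CA1; 95% interval -0.23 to 0.30, adjusted p = 0.884). In the dendritic layer it was 0.72 lower in CA2 (8.30 ± 0.09 in CA2, 9.02 ± 0.17 in CA1; SE 0.12, adjusted p = 0.00223), or 0.61 of the CA1 level, and this held under all 24 alternatives. Hcn4 was 0.21 lower in the CA2 than in the CA1 dendritic layer without overlap but did not pass (adjusted p = 0.0828). The Hcn4 difference between the cell body layers was 0.14 (adjusted p = 0.282) and passed only when each array was centred on its median (0.24, adjusted p = 0.0363).

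**Figure D2:**
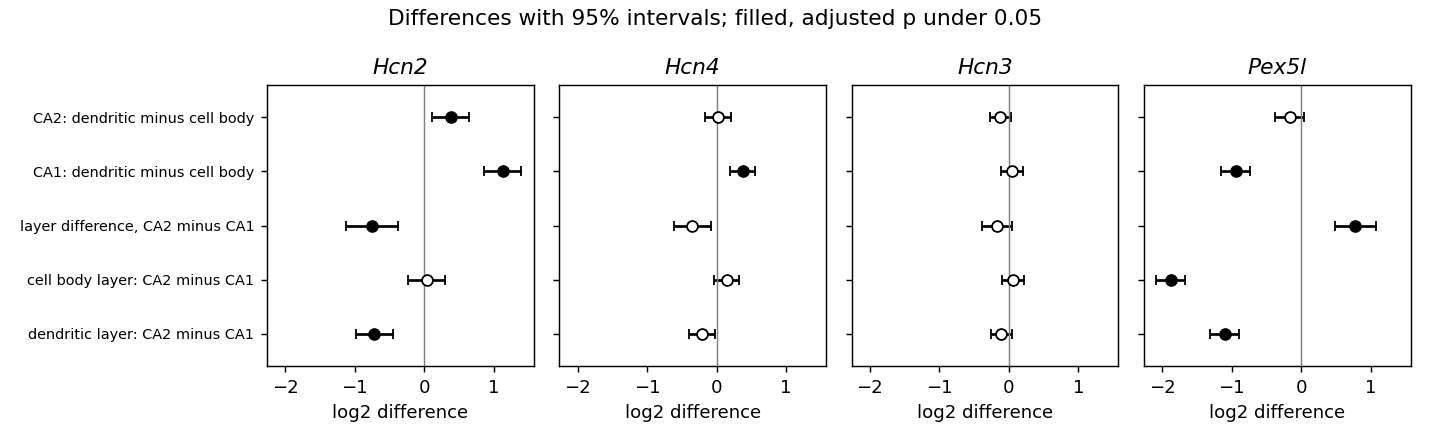
Log2 differences of the 4 genes in 5 comparisons, as points with 95% intervals from limma, filled where the adjusted p was under 0.05. Hcn2 and Pex5l were each called in 4 comparisons, with Pex5l at -1.88 between the cell body layers and Hcn2 at 1.13 between the layers of CA1.

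The order of the levels was the same for Hcn2 and Hcn4: CA1 dendritic, CA2 dendritic, CA2 cell body, CA1 cell body. Of the neighbours in that order, the CA2 and CA1 cell body layers did not differ beyond their spread for Hcn2, and for Hcn4 no pair of neighbours passed. For Pex5l the order was CA1 cell body, CA1 dendritic, CA2 cell body, CA2 dendritic, where only the last neighbours did not pass, and the middle pair, which was not tested, did not overlap. Over the 12 arrays Hcn2 and Hcn4 correlated at r = 0.75, and Pex5l with Hcn2 at -0.02, as a description of arrays that share 4 groups and a normalization.

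Set against all genes, 1 of 4 members was called between the CA2 layers, against 34% of all genes (dendritic higher for 16.2%, lower for 17.8%). Between the CA1 layers 3 of 4 were called, 2 higher and 1 lower, where 46.9% of all genes were (28.3% higher, 18.5% lower). In the interaction 1 member was higher and 1 lower, against 11.6% of all genes (4.81% higher, 6.81% lower). Between the cell body layers 1 member was lower in CA2, against 21.1% (10.6% higher, 10.5% lower), and between the dendritic layers 2 were lower in CA2, against 30.2% (11.6% higher, 18.6% lower). With so many genes called between layers, a call alone sets no member apart. The median size of the members' CA1 layer differences was 0.66, against 0.23 over all genes, and in CA2 it was 0.14 against 0.15. The split of called genes moved with the scaling: in the region comparison of dendritic layers 38.3% were higher in CA2, and 70.3% after each array was centred on its median, with 50.3% and 74.3% for the cell body layers. Centring moved the median of all genes by 0.108 in the dendritic layers. In the interaction the share was 41.4%, and 30.2% after quantile normalization was run again. Hcn2 and Pex5l kept their directions in these comparisons under both scalings wherever they were called.

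Markers of other cells moved with these layer differences. In CA2 the dendritic layer had the higher level of 7 of 10 interneuron markers, and in CA1 that of 8, with 1 lower. All 7 oligodendrocyte, 8 astrocyte and 8 microglia markers were higher in the dendritic layer of both regions. The interneuron list averaged 9.36 to 9.55 on the CA2 dendritic arrays, against 7.90 to 8.02 on the CA2 cell body arrays. In CA1 it averaged 8.97 to 9.40 on the dendritic arrays, against 7.84 to 7.93 on the cell body arrays. The oligodendrocyte list averaged 8.99 to 9.13 on the CA2 dendritic arrays, against 7.70 to 7.83 on the CA2 cell body arrays, with 8.42 to 8.72 and 7.13 to 7.25 on the same layers of CA1. Between the dendritic layers, where Hcn2 was lower in CA2, the lists went both ways. Of 8 microglia markers 7 were lower in CA2 (median -0.46), and of 7 pyramidal neuron markers 5 were lower (median -0.54). Of 10 interneuron markers 5 were higher and 2 lower in CA2, of 7 oligodendrocyte markers 4 were higher and 0 lower, and of 8 astrocyte markers 1 was higher and 2 lower. These region counts are from all 12 arrays. Without the oocyte arrays the microglia median was -0.50 with the block and -0.45 without it, and the pyramidal median -0.70 and -0.67. The interneuron, oligodendrocyte and astrocyte medians, 0.37, 0.33 and 0.06 on all arrays, were 0.32, 0.58 and 0.02 with the block. Without it they were 0.38, 0.57 and -0.005. Only CA2 dendritic 1 of its group remains in these fits, so marker counts from them are not given.

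Pyramidal neuron markers moved the other way. Of 7 measured, 7 were lower in the CA2 dendritic layer and 6 in the CA1 dendritic layer, with medians of -1.25 and -0.84, where Pex5l differed by -0.16 and -0.94. Of 5 CA1 neuron markers, 1 was lower in the CA2 and 4 in the CA1 dendritic layer, and 3 were lower in the CA2 than in the CA1 cell body layer. The CA1 neuron list averaged 7.61 to 7.85 on the CA2 dendritic and 8.40 to 8.64 on the CA2 cell body arrays. On the CA1 arrays it averaged 8.39 to 8.71 in the dendritic and 9.97 to 10.05 in the cell body layer. Its middle groups overlapped, with means of 8.52 in the CA2 cell body and 8.51 in the CA1 dendritic layer. Pex5l stood apart there, at 8.75 and 9.69, so the list mean and Pex5l shared only their lowest and highest groups. The genes of the list differed in these middle groups. Spink8 was higher in the CA2 cell body than in the CA1 dendritic layer, at 10.76 against 7.71. Wfs1 (8.70 against 10.06), Fibcd1 (7.61 against 8.69) and Man1a were lower there, as Pex5l was, and Pou3f1 was lower within its spread. This pair of groups was not tested. The part of the cell makeup in the values of Hcn2, Hcn4 and Pex5l was not tested.

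The genes whose values followed the members most closely over the 12 arrays were sought among genes whose group means spanned at least 1 log2 unit. For Pex5l they were Wfs1 (r = 0.997), an endoplasmic reticulum protein that marks CA1 pyramidal neurons, Fibcd1 (0.993), also a CA1 marker, and Htr1a (0.991), the serotonin 1A receptor. Wfs1 averaged 8.33 in the CA2 dendritic, 8.70 in the CA2 cell body, 10.06 in the CA1 dendritic and 11.42 in the CA1 cell body layer, the same order as Pex5l from low to high. For Hcn2 they were Castor2 (0.986), a relative of the arginine sensor of the mTORC1 pathway, Rtn2 (0.977), a reticulon, and Dlgap3 (0.9746), a postsynaptic scaffold whose mRNA is known from dendrites. Dlgap3 rose by 0.65 in the CA2 and by 1.35 in the CA1 dendritic layer, and without the oocyte arrays the CA2 difference was 0.34 with the block (adjusted p = 0.111) and 0.53 without it (adjusted p = 0.0257). For Hcn4 they were Arhgef17 (0.866), a guanine nucleotide exchange factor, Cep170b (0.854) and Lmcd1 (0.852), and for Hcn3 the highest value among 2747 genes was 0.564, for Nppc, a natriuretic peptide. The arrays share 4 groups and 1 normalization, so these values describe likeness between group patterns.

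**Figure D3:**
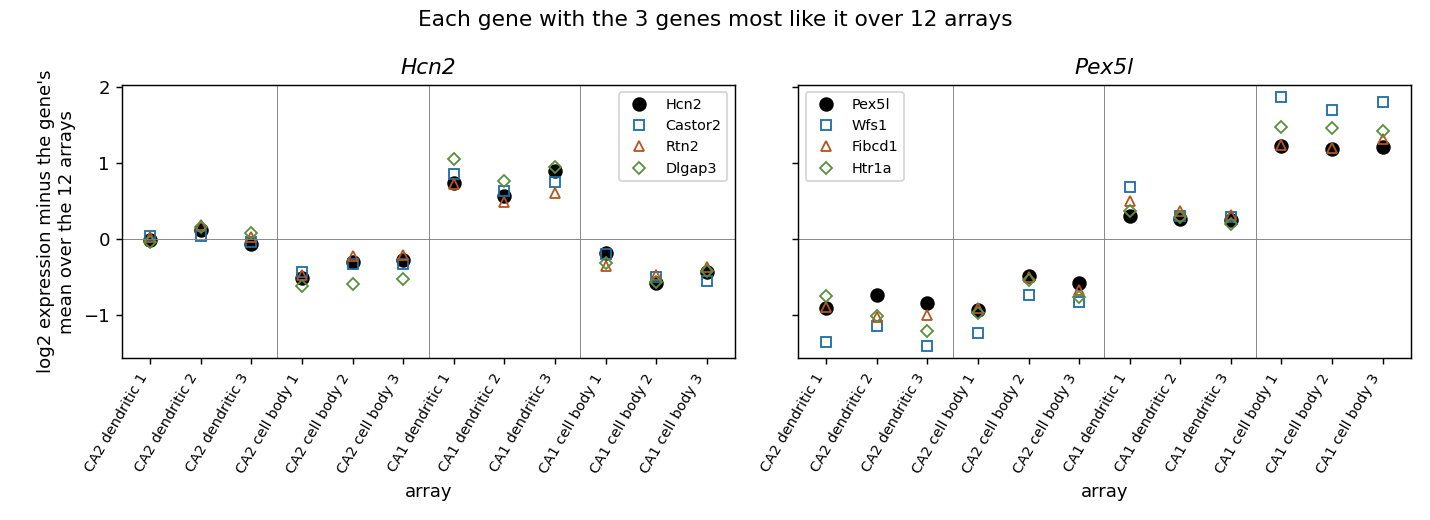
Log2 expression minus each gene's mean over the 12 arrays, for Hcn2 (left) and Pex5l (right) with the 3 genes most like each, by array. The Hcn2 set is highest on the CA1 dendritic arrays and the Pex5l set on the CA1 cell body arrays, with r of 0.9746 to 0.986 and 0.991 to 0.997.

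The counts and values of the lists that follow are from all 12 arrays, unless the oocyte arrays are said to be left out. Only CA2 dendritic 1 of its group remains without those arrays, so list counts are not given for these fits. Fewer partner, cyclase, phosphodiesterase and effector genes passed between the CA2 layers in them. Of 11 further genes listed as HCN partners, 8 were measured. Of these, 2 rose and 4 fell in the CA2 dendritic layer, and 3 rose and 4 fell in that of CA1, with medians of -0.05 and -0.20. The list includes Pex5, for which no action on HCN channels is claimed here. Pex5 was among the genes that fell in CA2 (-0.21, adjusted p = 0.0329) and was not called in CA1. Nedd4l, a ubiquitin ligase, fell by 1.19 in the CA2 and by 0.88 in the CA1 dendritic layer, and Ptpra, a receptor tyrosine phosphatase, by 0.58 and 0.63. Flna (filamin A), an actin-crosslinking protein, rose by 0.55 in the CA2 dendritic layer (adjusted p = 0.00315) and fell by 0.43 in the CA1 dendritic layer (adjusted p = 0.0112), with an interaction of 0.98 (adjusted p = 0.00473). Flna was the only partner of the 8 to pass in the interaction. Without the oocyte arrays its CA2 rise was 0.30 with the block (adjusted p = 0.253) and 0.49 without it (adjusted p = 0.0648), and its interaction 0.72 (adjusted p = 0.0813) and 0.92 (adjusted p = 0.0376). The median CA2 layer difference of the 8 partners without these arrays was -0.01 with the block and -0.08 without it.

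HCN channels share their ligand-binding fold with the cyclic nucleotide-gated channels and the Kcnh potassium channels. Of these 14 genes, 2 were lower and 0 higher in the CA2 dendritic layer, and 6 were higher and 1 lower in the CA1 dendritic layer. Kcnh7 fell by 2.12 in the CA1 dendritic layer and differed by -0.19 in CA2 (adjusted p = 0.512), with an interaction of 1.93 (adjusted p = 0.00197). It averaged 7.71 ± 0.31 in the CA2 and 10.36 ± 0.07 in the CA1 cell body layer. Kcnh1 had the opposite pattern, with a fall of 1.27 in the CA2 dendritic layer and a difference of 0.17 in CA1 (adjusted p = 0.134; interaction -1.44, adjusted p = 9.86e-05). The 6 CA1 rises lay between 0.22 and 0.31, where the antigenomic features differed by 0.09 to 0.29, and the part of the background in them was not tested.

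The enzymes that make cAMP, the ligand of HCN channels, differed among themselves. Of 9 adenylyl cyclase genes, 3 were higher and 2 lower in the CA2 dendritic layer, 5 were higher and 2 lower in the CA1 dendritic layer, and 7 passed in the interaction, 2 of them upward. Adcy1, a calmodulin-stimulated cyclase, rose by 1.26 in the CA1 dendritic layer and differed by 0.16 in CA2 (adjusted p = 0.189; interaction -1.10, adjusted p = 5.25e-04). Adcy5 rose by 1.44 in the CA1 dendritic layer and differed by 0.28 in CA2 (adjusted p = 0.0727). Adcy8, also calmodulin-stimulated, rose by 0.74 in the CA2 and fell by 1.11 in the CA1 dendritic layer (interaction 1.85, adjusted p = 3.16e-04), and Adcy9 fell by 1.70 and 1.28. Without the oocyte arrays the interactions of Adcy1, Adcy5 and Adcy8 passed with the block (-1.35, -1.53 and 1.76) and without it, as did those of Kcnh1 and Kcnh7, while the CA2 rise of Adcy8 was 0.65 with the block (adjusted p = 0.0785) and 0.54 without it (adjusted p = 0.0471). The median interaction of the 9 cyclases, -0.35 on all arrays, was then -0.47 with the block and -0.35 without it, and fewer of them passed.

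Of 14 measured phosphodiesterase genes, which break cAMP down, 6 were higher and 4 lower in the CA2 dendritic layer and 5 higher and 5 lower in the CA1 dendritic layer. Pde1a fell by 2.29 in the CA2 and 1.72 in the CA1 dendritic layer, and Pde7b rose by 1.81 and 1.67. Of 7 measured cAMP effector genes, 2 rose and 4 fell in the CA2 dendritic layer, and 2 rose and 3 fell in CA1. The catalytic kinase subunit Prkaca fell by 0.82 and 0.42, and Rapgef3, which encodes the exchange factor Epac1, rose by 0.42 and 0.73. Without the oocyte arrays the CA2 rise of Rapgef3 was 0.26 with the block (adjusted p = 0.25) and 0.36 without it (adjusted p = 0.0404), and the CA2 calls of Pde1a, Pde7b and Prkaca held in both fits. The median CA2 layer difference of the phosphodiesterase genes was then -0.08 with the block and -0.10 without it. That of the effector genes was -0.465 with the block and -0.405 without it.

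**Figure D4:**
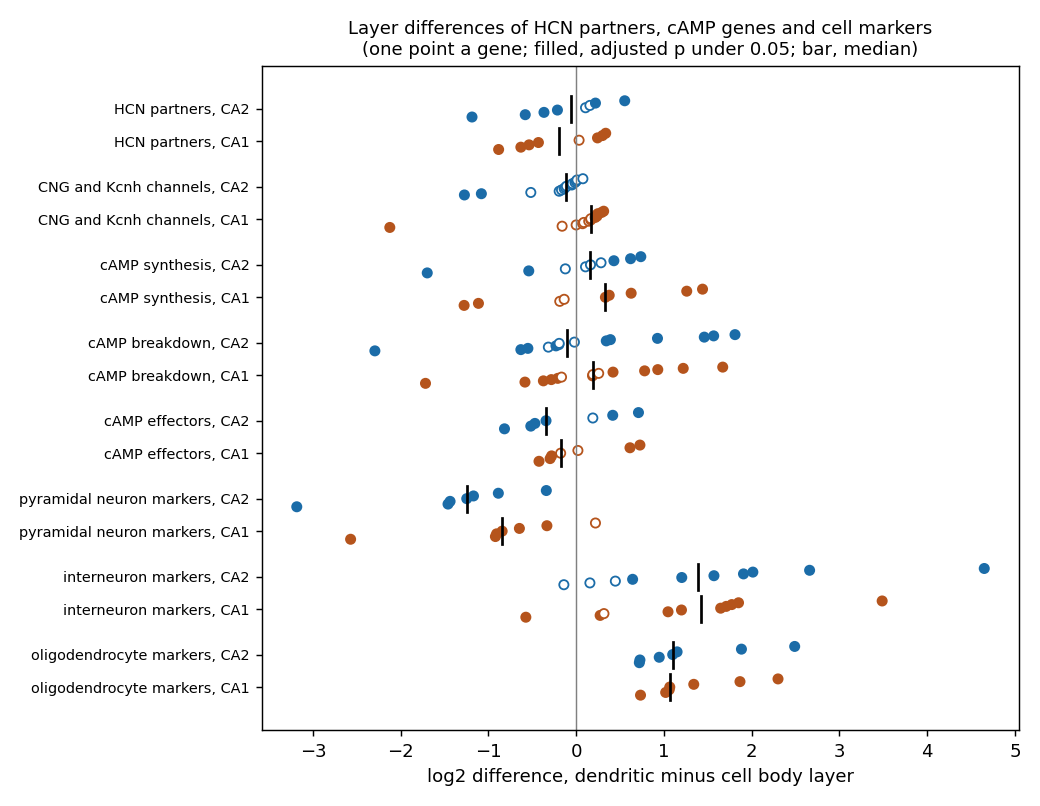
Dendritic minus cell body log2 differences in CA2 (upper row of each pair) and CA1 (lower row) for HCN partners, related channels, cAMP genes and 3 marker lists, with a point for each gene (filled, adjusted p under 0.05) and a bar at the list median. The cAMP and partner lists spread to both sides of 0, pyramidal markers lie mostly to the left, and interneuron and oligodendrocyte markers mostly to the right.

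**Figure D5:**
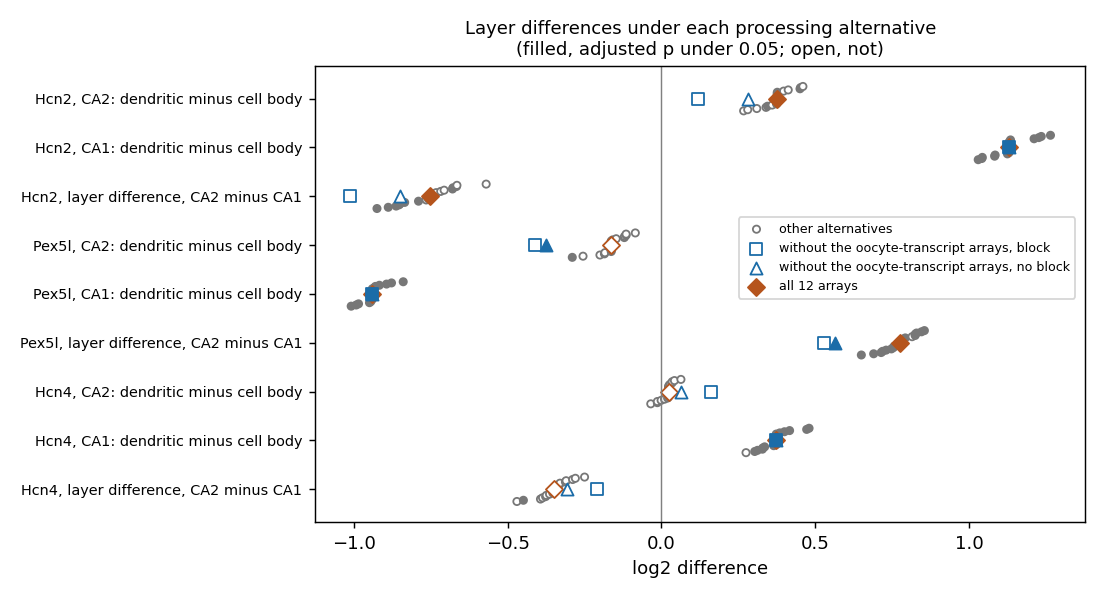
Layer differences of Hcn2, Pex5l and Hcn4 under each processing alternative (grey), without the 3 oocyte-transcript arrays with the block (blue squares) and without it (blue triangles), and with all 12 arrays (orange diamonds), filled where the adjusted p was under 0.05. The CA1 differences of Hcn2 and Pex5l are filled throughout (1.03 to 1.27 and -1.01 to -0.84), while the CA2 difference of Hcn2 and both interactions are open in part.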

How the data were processed

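The deposited values are log2 expression that the authors made with RMA, per the submitters' processing notes, a method that subtracts background, equalises array distributions by quantiles and summarises probes on a log2 scale. The sources used here do not give the software version, the genome build or whether both runs were normalized together. An array has no read depth: the number of arrays limits precision. Of 72688 features, 30604 had 1 symbol in the platform annotation, and 22818 of these were matched to RefSeq through Entrez identifiers. The brightest feature of each symbol was kept (30142 genes). Limma 3.58.1 (R 4.3.3; lmFit, eBayes) fitted all 12 arrays, with a mean per group (4) and replicate number as a blocking term, two-sided, with Benjamini-Hochberg adjustment, and was tested on simulated data. The protocols name 3 mice but do not state that the number is the mouse. Each p-value sets a difference of group means against the residual spread of the 12 arrays, moderated over all genes. The samples came from 3 mice, and the labels do not show how far this spread holds that between animals. The members, lists and tests were chosen with earlier results of these data known. Named genes were the members, up to 3 genes of smallest p per pathway list in the layer comparisons and interaction, and the 3 genes most correlated with each member, leaving out predicted genes, clone names, small RNAs and chemosensory (olfactory, vomeronasal, taste) receptors. Alternatives covered the block, the arrays fitted, weights, scaling, a dim filter, every feature, left-out arrays and the arrays with oocyte transcripts. A fit with neither the oocyte arrays nor the block was added after seeing the data.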

Additional observations from a re-analysis of the deposited data

Results flagged for a closer look

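The layer difference of 2 members differed between regions in the interaction test. For Hcn2 the dendritic minus cell body difference was 0.38 in CA2 and 1.13 in CA1, an interaction of -0.75 (95% interval -1.13 to -0.38, adjusted p = 0.0206; n = 3 arrays in each group), and the layers kept this direction in 3 of 3 numbered pairs in each region. For Pex5l the differences were -0.16 in CA2 and -0.94 in CA1, an interaction of 0.78 (95% interval 0.48 to 1.07, adjusted p = 0.00585), with 2 of 3 pairs lower in CA2 and 3 of 3 lower in CA1. Where the layers did not overlap, as for Hcn2 in both regions and Pex5l in CA1, any matching of arrays gives 3 of 3. No label says that the number is the mouse. Groups of 3 arrays are too small for a test of outlying samples.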

How the results depend on the processing

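Of 476 member values recomputed, 434 kept direction and side of the threshold. The Hcn2 rise and Pex5l fall in the CA1 dendritic layer, and the region differences of Pex5l and of dendritic Hcn2, kept theirs in all 24 alternatives each. The numbers gave little sign of pairing (1 of 18 same-numbered pairs with r over 0.1, range -0.35 to 0.13), and without the replicate block no member changed call (Hcn2 interaction -0.75, adjusted p = 0.00933; 4387 genes called). Without the oocyte arrays, a lone CA2 dendritic array being assumed to vary like the others, the Hcn2 CA2 difference was 0.1175, the Hcn2 interaction -1.0125 and the Pex5l interaction 0.5275, all outside the threshold, and 5707 genes were called between the CA2 layers, 699 in the interaction and 1918 between dendritic layers. The kept CA2 arrays share no number across layers, so these values carry an offset between numbers taken from CA1. With neither these arrays nor the replicate block, a fit chosen after seeing the data, Hcn2 was at 0.28 in CA2 and -0.85 in the interaction (both outside) and Pex5l at -0.375 in CA2 and 0.565 in the interaction (both inside), with 1303 genes called in the interaction and 3083 between dendritic layers. Each array centred on its median gave 0.34 (outside) for Hcn2 in CA2, 0.243 (inside) for Hcn4 between cell body layers, and -0.00167 for Hcn3 in CA1 and -0.0133 for Hcn4 in CA2, both turned in sign, as they were by repeated quantile normalization (-0.00972 and -0.0347). Testing every feature left Hcn2 in CA2 at 0.377 with adjusted p = 0.0752, and called 15383 features between CA2 layers, 22235 between CA1 layers and 11487 between cell body layers. Between dendritic layers 3109 genes were called from these groups alone and 5579 with array weights. Leaving out arrays gave, for Hcn2, -0.925 to -0.57 in the interaction, 0.267 to 0.46 in CA2 and -0.085 to 0.22 between cell body layers. It gave -0.03 to 0.085 for Hcn3 in CA1, and for Hcn4 0.275 to 0.48 in CA1, -0.47 to -0.25 in the interaction and -0.0133 to 0.0633 in CA2. For Pex5l it gave 0.65 to 0.855 in the interaction and -0.29 to -0.085 in CA2. Genes called then numbered 697 to 4878 in the interaction, 3451 to 6743 between cell body layers and 3663 to 9706 between dendritic layers. Beyond that offset and the fewer arrays, the cause of these changes was not tested. Each member had 1 feature, so a test on another feature of the gene could not be run. Background limits Hcn3 and Hcn4, which lie within the range of antigenomic features.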
